A study of Rattus norvegicus with 24 samples.

Results

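Noggin-treated neurospheres that received no radiation (N) were compared with untreated neurospheres (C) by bulk RNA-seq. The comparison used 7 of the 24 samples of the series, the N samples MO5, MO6, MO7 and MO8 against the C samples MO1, MO3 and MO4. The control sample MO2 was set aside, since the authors removed it as an outlier, and its values are given beside the genes described below. Neural progenitor cells (NPCs) had been taken from the brains of E15 Sprague Dawley rat fetuses and grown, with epidermal and fibroblast growth factors, as floating aggregates called neurospheres (NSps). The series holds 6 groups of 4 samples. N received recombinant Noggin at 5 µM the day before and again on day 3 after seeding, the day on which other groups were irradiated, and neither C nor N was irradiated. CGy and NGy are the corresponding groups with 1 Gy of X-rays, and A and AGy received ascorbic acid without and with that dose. The study's results place RNA extraction 7 days after irradiation, while its methods say that treated neurospheres were cultured for up to 7 days before analysis. The labels give C no treatment, and the study's text describes a vehicle. All groups share the strain, the growth medium and the poly(A) selection of RNA. No source says that the samples of a group came from separate cultures or litters, so the p-values measure the spread between these samples, which may be technical.

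Noggin is a secreted protein that binds bone morphogenetic proteins (BMPs) and keeps them from their receptors. BMPs signal through paired serine/threonine kinase receptors and SMAD transcription factors, and the Id genes are well-known targets. In neural progenitors BMP signaling is known to favor astrocytes, which express GFAP, over neurons and oligodendrocytes. The study added Noggin because it inhibits this pathway, and the comparison of N with C sets RNA levels with and without Noggin side by side in the absence of radiation.

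Expression was given per Ensembl gene identifier as TPM, the abundance of a gene's transcripts relative to their length and to the total of the sample. The files list 16478 genes without names, and 0 of the identifiers could be paired with a symbol. For this reason none of the 28 gene lists drawn up for the study, among them BMP ligands and receptors, Id genes, astrocyte, neuron and oligodendrocyte markers, could be looked up, and the label of neural progenitor cell could not be compared with its markers. Genes are therefore described by identifier, and 4 are named, the 2 that rose most and the 2 that fell most by the rule given with the methods. In bulk RNA, fewer cells of a type and less RNA per cell cannot be told apart.

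The listed genes of a sample summed to between 615930 and 628348 TPM. Between 9478 and 9520 genes reached 1 TPM in the C samples and between 9529 and 9627 in the N samples. MO2 had 8627 such genes. Its median level was 1.32 TPM, against 2.63 to 2.91 TPM in the other C samples and 2.95 to 3.13 TPM in N. The N samples were thus above every C sample in both the median level and the number of genes at 1 TPM. The number of reads is not known from TPM.

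The clearest difference between N and C, and the only one called in the values before batch correction, was a higher level of ENSRNOG00000002382 in N. This gene was at 12.7 TPM in MO1, 14.7 TPM in MO3 and 10.7 TPM in MO4, and at 54.5, 45.5, 50.3 and 59.3 TPM in the N samples MO5 to MO8. The groups did not overlap, and the lowest N sample stood far above the highest C sample. MO2, at 5.42 TPM, was below the other C samples. The mean was 52.4 ± 5.88 TPM in N (SD, n = 4) and 12.7 ± 2.0 TPM in C (SD, n = 3). On the log2(TPM + 1) scale the change was 1.96 ± 0.13 (SE) with an adjusted p of 0.0092 in limma's moderated test. It was the 1 gene of 9779 tested that passed the study's threshold, an adjusted p of at most 0.05 with at least a 1.5-fold change, in the values as deposited before batch correction. That is 0.0102% of the genes tested. The call was lost when MO1, MO7 or MO8 was left out, with adjusted p of 0.0586, 0.0888 and 0.0545, and when MO2 was added, with 0.0915. The log2 change was 1.97, 1.98, 1.90 and 2.24 in these fits.

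ENSRNOG00000036673 showed the largest rise of the 4 genes, from a low level. Its C values were 1.61 TPM in MO1, 5.69 TPM in MO3 and 0.344 TPM in MO4, and its N values were 8.07, 13.7, 12.3 and 15.7 TPM in MO5 to MO8. The groups did not overlap, but the C samples differed widely among themselves. MO2 was at 2.64 TPM. The log2 change was 2.20 ± 0.50 (SE, 4 N against 3 C samples). Before correction limma gave an adjusted p of 0.318, so the difference was not called there, and in the authors' batch-corrected values it was 0.00383.

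ENSRNOG00000026124 was the decrease with the smallest p. It was at 20.4 TPM in MO1, 26.5 TPM in MO3 and 32.8 TPM in MO4, and at 6.91, 5.28, 6.43 and 9.15 TPM in MO5 to MO8. Every N sample was below every C sample, MO2 at 26.7 TPM included. The means were 6.94 ± 1.62 TPM in N (SD, n = 4) and 26.6 ± 6.19 TPM in C (SD, n = 3), a log2 change of -1.79 ± 0.20 (SE). The adjusted p by limma was 0.0922 before correction and 0.00171 after it.

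ENSRNOG00000004681 was lower in N by a similar amount, with more spread. The C values were 5.45, 4.49 and 6.84 TPM in MO1, MO3 and MO4, and MO2 was at 3.11 TPM. The N values were 3.58 TPM in MO5, 0.496 TPM in MO6, 0.0939 TPM in MO7 and 0.00665 TPM in MO8. MO5 was close to the C samples and above MO2, while the other N samples were far below. The log2 change was -1.98 ± 0.50 (SE), with an adjusted p by limma of 0.323 before correction and 0.033 after it. Without MO5 the change was -2.47 with an adjusted p of 0.0481. Leaving out any other sample gave changes from -1.74 (without MO8) to -2.10 (without MO3), with adjusted p by limma of 0.651 and 0.175 and between these for the rest. With 0.1 in place of 1 added to the TPM the change was -3.60, with an adjusted p of 0.387.

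**Figure D1:**
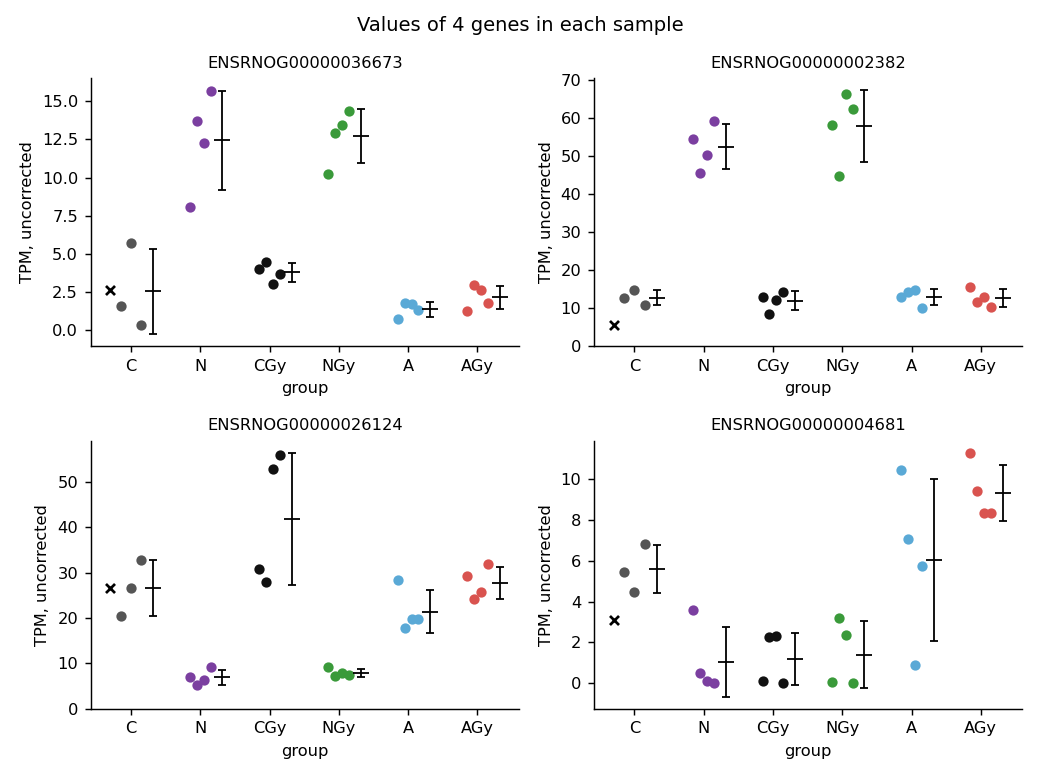
Level in TPM of the 4 named genes in each sample of the groups C, N, CGy, NGy, A and AGy; points are samples, the cross is MO2, and bars give the mean ± SD without MO2. ENSRNOG00000002382 lay between 45.5 and 59.3 TPM in N and between 10.7 and 14.7 TPM in C, and for ENSRNOG00000004681 the N sample MO5, at 3.58 TPM, stood apart from the other N samples.

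The irradiated groups hold 8 other samples in which the same treatment can be read, since NGy and CGy share no sample with N and C. The 4 genes were chosen on N and C, but 1 condition of the choice was a call after the authors' correction, which was computed over all groups, NGy and CGy included. ENSRNOG00000002382 was at 44.7 to 66.3 TPM in NGy and at 8.36 to 14.3 TPM in CGy, a log2 change of 2.20 ± 0.18 (SE, 4 against 4 samples) with an adjusted p of 0.00305 by limma. ENSRNOG00000036673 was at 10.2 to 14.4 TPM in NGy and 3.02 to 4.45 TPM in CGy, a change of 1.52 ± 0.13 with an adjusted p of 0.00305. Both genes were higher with Noggin under radiation too, and neither pair of groups overlapped. ENSRNOG00000026124 was at 7.32 to 9.20 TPM in NGy and at 27.9 to 55.8 TPM in CGy, a log2 change of -2.20 ± 0.23 with an adjusted p of 0.00764. Of the 9779 genes, ENSRNOG00000002382 had the highest log2 change of NGy against CGy and ENSRNOG00000026124 the lowest.

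ENSRNOG00000004681 did not show this pattern. It was at 2.54e-07, 0.0393, 2.34 and 3.22 TPM in the NGy samples, with a mean of 1.40 ± 1.63 TPM (SD, n = 4). The CGy samples were at 0.00117, 0.116, 2.26 and 2.33 TPM, with a mean of 1.18 ± 1.29 TPM (SD, n = 4). Both groups thus held samples near 0 TPM beside samples above 2 TPM. The log2 change was 0.07 ± 0.63 with an adjusted p of 0.975 by limma, and no effect of Noggin under radiation was detectable at this spread. The test of the difference between both effects, an interaction term in limma over the 4 groups, gave 2.04 with an adjusted p of 0.281 for this gene. The interaction was 0.24, -0.68 and -0.41 for ENSRNOG00000002382, ENSRNOG00000036673 and ENSRNOG00000026124, with adjusted p of 0.606, 0.506 and 0.524.

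In the ascorbic acid groups, which received no Noggin, the levels of the first 3 genes were near those of C. ENSRNOG00000002382 averaged 13.0 ± 2.06 TPM in A and 12.6 ± 2.27 TPM in AGy (SD, n = 4 each). ENSRNOG00000036673 averaged 1.37 ± 0.488 TPM in A and 2.15 ± 0.774 TPM in AGy, and ENSRNOG00000026124 averaged 21.4 ± 4.67 TPM and 27.7 ± 3.51 TPM. ENSRNOG00000004681 averaged 6.03 ± 3.96 TPM in A, where single samples ranged from 0.879 to 10.4 TPM, and 9.33 ± 1.38 TPM in AGy. Differences of these groups from C were not tested here.

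Across all 9779 genes tested, the change between N and C was small for most. The median log2 change was 0.04, the range was -2.13 to 2.24, and 57.2% of genes had a higher mean in N, beside the higher median level of the N samples, whose part in this was not tested. The group means differed at least 1.5-fold for 416 genes higher in N and 157 lower, together 5.86% of the genes tested and separately 4.25% and 1.61%. The means differed at least 2-fold for 77 genes higher and 28 lower, together 1.07% and separately 0.787% and 0.286%. The groups did not overlap for 751 genes higher in N and 520 lower, which is 7.68% and 5.32%. Without adjustment 1181 genes (12.1%) had a p under 0.05 in limma, 764 higher (7.81%) and 417 lower (4.26%). Apart from ENSRNOG00000002382, these differences did not pass the adjusted threshold.

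The spread among the untreated samples was as large as the distance between the groups. Distances between samples were taken as the root mean square log2 difference over the tested genes. MO1 and MO3 were 0.373 apart, MO4 was 0.510 from MO1 and 0.593 from MO3, and the N samples were 0.318 to 0.372 apart. Pairs of 1 C and 1 N sample averaged 0.459, with MO1 and MO3 at 0.341 to 0.419 from the N samples and MO4 at 0.560 to 0.641. Among all 24 samples, the nearest to MO1 was MO5 and the nearest to MO3 was MO7, both from N, while the nearest to MO4 was MO21 of AGy. The between-group mean exceeded the within-group mean of 0.400 by 0.0584, with p = 0.0571 in an exact one-sided permutation test over the 35 assignments of the 7 samples to groups of these sizes, where the smallest p possible is 0.0286.

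In the principal component analysis of the uncorrected values the first component, with 45.4% of the variance, set MO4 at -45.0 apart from all others. The C samples MO1 and MO3 were at -5.07 and 6.94 on it, and the N samples at 3.38 to 15.7, so that the groups overlapped. After the authors' correction the first component, with 38.9%, held the C samples at -19.4 to -15.0 and the N samples at 9.44 to 14.6. That correction used the group labels, kept the group means and took out spread within groups. Separation after it was thus favored by the correction and is not evidence of a difference.

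**Figure D2:**
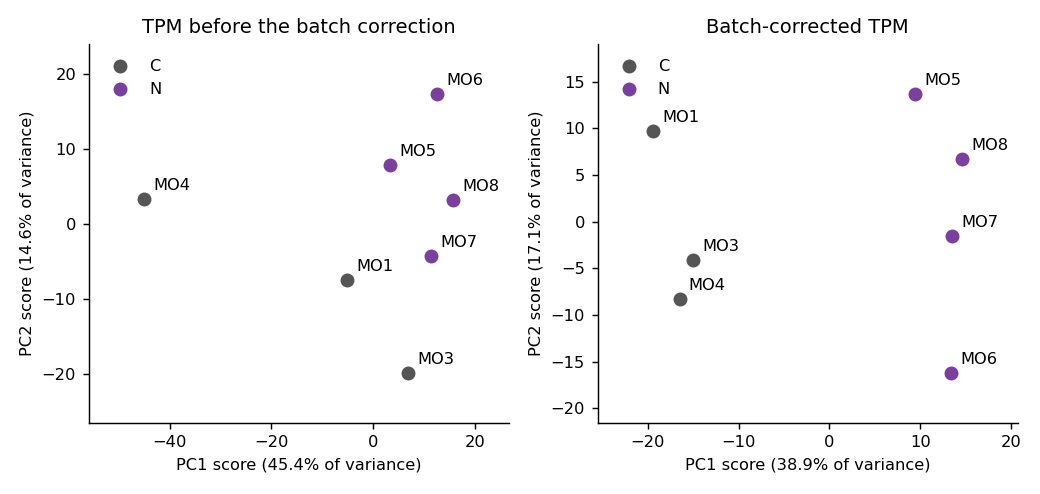
First and second principal components of log2(TPM + 1) for the 3 C and 4 N samples, before (left) and after (right) the authors' batch correction; each point is a sample and the axis labels give the share of variance. MO4, at -45.0, stood apart before correction, and the groups were separate on the first component after it. The correction used the group labels and took out spread within groups, which favors such a separation.

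Of C and N, the correction acted mostly on C. It left the mean of each group unchanged and took out 67.3% of the within-group sum of squares in C and 10.9% in N. The median SD of a gene fell from 0.197 to 0.0933 in C and from 0.131 to 0.121 in N. Before correction the SD was larger in C for 66.5% of the genes, and after it for 35.9%. The correction shifted MO4 by 0.311 (root mean square log2), MO3 by 0.231, MO1 by 0.126 and each N sample by 0.0404 to 0.0844. It shifted the samples of the other groups by 0.0481 to 0.211. It used the group labels and equals removing the 2 largest components of the differences within groups, so p-values from the corrected values do not account for the spread it took out.

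In the corrected values 379 of 9764 genes were called, 3.88% of those tested. Of these, 305 were higher in N (3.12%) and 74 lower (0.758%), and ENSRNOG00000002382 was among them. The median change was 0.77 for the 305 upregulated genes and -0.74 for the 74 downregulated genes on the log2 scale. These calls come from the same 7 samples as the uncorrected values, so the counts that follow are descriptions. Of the 305 genes, 173 had groups that did not overlap before correction, where 7.68% of all genes did so in that direction, and 230 had an unadjusted p under 0.05, against 12.1% of all genes in either direction. Of the 74 genes, 36 did not overlap, against 5.32% of all genes in that direction, and 55 had an unadjusted p under 0.05. The calls were most frequent among genes of low level. Of the 2342 genes with a mean under 5 TPM, 4.27% were called higher and 1.62% lower, and of the 890 genes at 100 TPM or more, 1.35% and 0.449%. The SD of the uncorrected values was also larger at low levels, with a median of 0.291 in C under 5 TPM and 0.147 at 100 TPM or more.

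**Figure D3:**
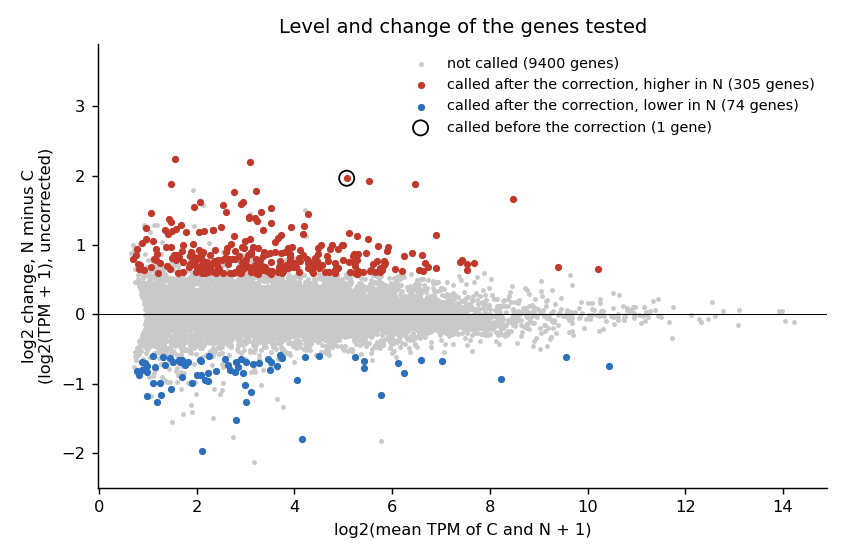
Log2 change of N against C before correction (vertical axis) against the log2 of the mean level in TPM + 1 (horizontal axis) for each gene tested. Red and blue points are the 305 genes called higher and the 74 called lower after correction, and the circled point is ENSRNOG00000002382, the 1 gene called before it.

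The size of these changes depended on which untreated sample N was set against. For the 305 upregulated genes the median log2 difference between the N mean and a single C sample, before correction, was 0.60 for MO1, 0.39 for MO3 and 1.38 for MO4. The difference was at least 1.5-fold for 157 of them against MO1, for 100 against MO3 and for 297 against MO4. MO4 was the C sample farthest from the other C samples in 72.5% of these genes, and in 54.7% of all genes. The 74 downregulated genes had medians of -0.66, -0.33 and -1.20 against MO1, MO3 and MO4. Over all tested genes the medians were 0.01, -0.03 and 0.11.

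**Figure D4:**
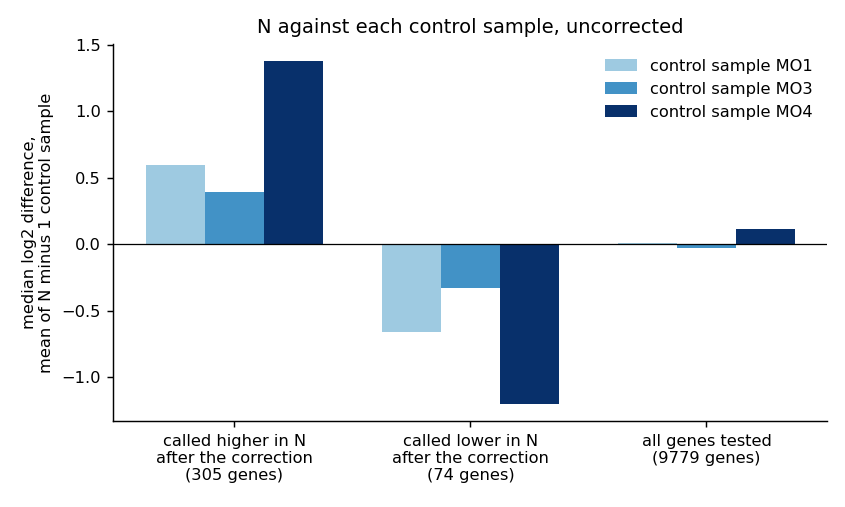
Median log2 difference between the mean of the 4 N samples and each single C sample, before correction, for the 305 genes called higher, the 74 called lower and all 9779 genes tested. The bars against MO4, at 1.38 and -1.20, were the longest in both called sets.

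Without MO4 the imbalance between higher and lower genes before correction was smaller. The means differed at least 1.5-fold for 251 genes higher in N and 136 lower, and the groups did not overlap for 959 higher and 946 lower, 9.83% and 9.69% of 9758 genes. The median change was then -0.0048. The corrected values without MO4 gave 236 genes higher and 30 lower, of which 213 and 27 were among the calls with all 7 samples. The correction itself was computed with MO4 and was not repeated without it. MO4 therefore still entered the corrected values of MO1 and MO3, and these counts cannot show what the calls owe to MO4. What set MO4 apart was not tested. The serial numbers in the sample titles are 1003, 1027, 1051 and 25 in C and 1005, 1029, 1053 and 1054 in N, and the C serial 25 lies beside 26 of A and 32 of AGy. The labels do not say what the serials mean, and which of them belongs to MO4 cannot be told from the column names.

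The genes called after correction were then read in NGy against CGy. The correction was computed over all groups, so the choice of these genes was not independent of the NGy and CGy samples. Of all tested genes 44.1% were higher in NGy than in CGy, with a median change of -0.02. Of the 305 genes upregulated in N after correction, 214 (70.2%) were higher in NGy, with a median of 0.17. For 48 of them (15.7%) every NGy sample was above every CGy sample, and for 7 (2.30%) every NGy sample was below, against 5.15% and 6.74% of the 9779 genes tested in N and C and 5.23% and 6.83% of the 9686 tested in NGy and CGy. Of the 74 genes downregulated in N, 44 were lower in NGy and 29 (39.2%) higher, where 44.1% of all genes were higher. Their median of -0.03 was near the -0.02 of all genes, and 9 (12.2%) did not overlap in the lower direction. The 236 genes called higher without MO4 were higher in NGy for 67.8%. This is not a separate check, since 213 of them were among the 305 and the correction had been computed with MO4.

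When the spread was estimated from all 6 groups in one fit of the uncorrected values, 49 genes were called between N and C (0.501%), 45 higher (0.46%) and 4 lower (0.0409%), and all 49 were among the 379. Of the 45, 41 were higher in NGy than in CGy and 24 (53.3%) did not overlap in that direction, with a median log2 change of 0.48, where 44.1% of all genes were higher and 5.15% did not overlap. Of the 4 lower genes, 3 were lower in NGy, and 1 did not overlap in that direction. The spread within NGy and CGy entered that fit, which favors genes with little spread in those groups. Among the 77 genes with at least a 2-fold higher mean in N, 57 (74.0%) were higher in NGy with a median of 0.31. Among the 28 with at least a 2-fold lower mean, 17 were lower with a median of -0.12. The other 11 (39.3%) were higher, where 44.1% of all genes were.

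NGy against CGy gave 38 called genes of 9686 before correction (0.392%), 24 higher (0.248%) and 14 lower (0.145%). At an unadjusted p under 0.05 there were 1728 genes (17.8%). Of the 24 genes called higher in NGy, 22 had a higher mean in N than in C, with a median change of 0.74 over the 24. For 11 of them N and C did not overlap in that direction, as for 7.68% of all genes. Of the 14 downregulated genes, 8 had a lower mean in N and 6 a higher one, with a median of -0.04, and 1 did not overlap in the lower direction, as did 5.32% of all genes. Across all 9779 genes the log2 changes of the 2 pairs had a Pearson correlation of 0.14 and a Spearman correlation of 0.02, and 47.0% had the same sign. These are descriptions over genes, which are not independent replicates.

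**Figure D5:**
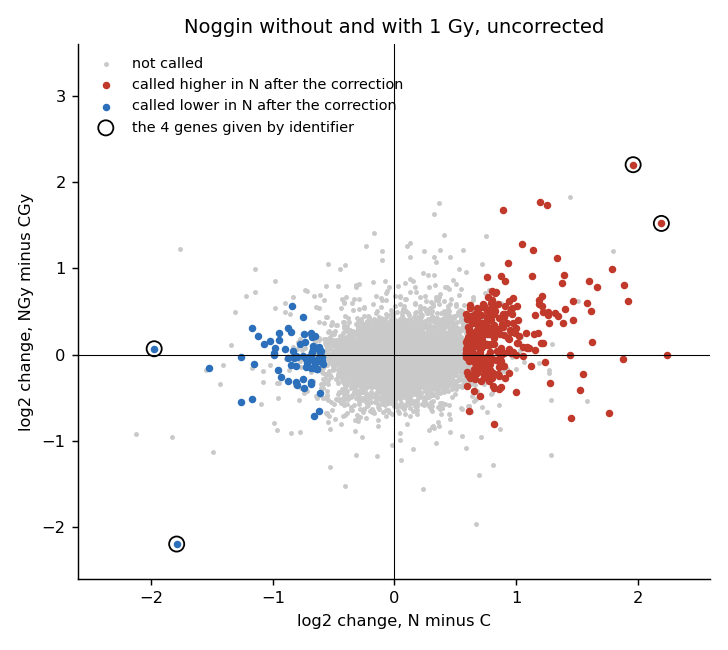
Log2 change of NGy against CGy (vertical axis) plotted against that of N against C (horizontal axis), before correction, for each gene tested; the 4 named genes are circled. ENSRNOG00000002382 and ENSRNOG00000036673 lay high in both pairs and ENSRNOG00000026124 low in both, and 47.0% of all genes had the same sign in both.

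The interaction of Noggin and radiation passed an adjusted p of 0.05 for 1 of 9958 genes in limma (0.01%), and 1648 genes (16.5%) had an unadjusted p under 0.05, 6.77% with a positive and 9.78% with a negative interaction. That gene, chosen for its p, was at 5.89 to 7.79 TPM in C, 12.6 to 14.4 TPM in N, 9.30 to 9.85 TPM in CGy and 7.75 to 9.72 TPM in NGy. Its log2 change was 0.89 for N against C and -0.13 for NGy against CGy, an interaction of -1.02 ± 0.12 (SE) with an adjusted p of 0.0133.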

How the data were processed

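Per the labels and methods, poly(A) RNA was sequenced and aligned to rat build Rn7 with STAR 2.6.1. The authors deposited TPM from Kallisto for all samples, and a second table without MO2, batch-corrected with NOISeq. The deposited batch-corrected values are scores equal to 0.5 times the corrected TPM + 1; they were doubled, 1 was subtracted, and values below 0 were set to 0. The methods differ between passages on whether the reads were single or paired-end. Columns were assigned to groups through the sample identifiers in the study and could not be tied to single label entries; 0 per-sample columns were left out.

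Genes whose mean reached 1 TPM in N or in C (or in the other pair compared) entered the test on log2(TPM + 1) with limma 3.58.1 in R 4.3.3, which understates changes of low genes. The fit held only the samples compared, and Benjamini-Hochberg adjustment covered all genes tested. A gene was called at an adjusted p of at most 0.05 and at least 1.5-fold change. The interaction was tested in C, N, CGy and NGy with no fold threshold. Separation of groups was tested by exact permutation over samples. Genes were named when their mean reached 5 TPM in either group, N and C did not overlap before correction and the corrected values called them; the 2 largest rises and the 2 largest falls were taken. The requirement of a symbol could not be applied. The functions were tested on simulated data. Figures were drawn with matplotlib 3.10.9. The samples, gene lists and tests were chosen with earlier results of these data known. TPM keep no read counts, so depth and counting error are unknown, and the spread between samples gives the precision.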

Additional observations from a re-analysis of the deposited data

Results flagged for a closer look

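The control sample MO2 had 8627 genes at 1 TPM or more, far from the 9478 to 9520 of the other C samples, a gap of 0.953 of the range of the group and past the critical value of Dixon's test. ENSRNOG00000004681 was at 3.58 TPM in MO5 and at 0.00665 to 0.496 TPM in the other N samples, a gap of 0.863 of the range. Groups of 4 samples were checked 22 times, and chance marks about 1 in 20. The effect of Noggin differed between irradiated and unirradiated neurospheres for 1 gene by the interaction test in limma, with the values given above.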

How the results depend on the processing

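The number of genes called between N and C before correction, 1 as reported, was 2 with a pseudocount of 0.1, 2 with samples rescaled to a common sum, 3 with a variance trend, 49 with all 6 groups in one fit, 308 (267 higher, 41 lower) with the 2 removed components as covariates and 511 (342 higher, 169 lower) with array weights in limma, whose estimation did not converge and which weighted MO1 at 14.2, MO3 at 0.432 and MO4 at 0.159. Of the 308 and 511 genes, 293 and 203 were among the 379. The covariates were the components that the correction took out, so the overlap of 293 was largely built in. With MO2 included limma called 0 genes, with 737 at an unadjusted p under 0.05, and the median change of all genes moved from 0.04 to 0.20. Leaving out 1 sample gave 0 to 6 genes, with 0 without MO1 (1089 at an unadjusted p under 0.05), MO7 (1037) or MO8 (727), 2 without MO5 and 6 without MO3. After correction the 379 genes became 252 (without MO1) to 428 (without MO5) when 1 sample was left out, 1421 (1033 higher, 388 lower) with the adjusted p alone, and 278 to 446 under the other settings. The correction was not recomputed in these fits, so a sample left out still entered the corrected values of the others. Quantile normalization gave 324 (230 higher, 94 lower). The 1 interaction gene became 0 with quantile normalization (1537 at an unadjusted p under 0.05), with all 6 groups (1508) and with MO2 (1136), and 0 to 3 when 1 sample was left out, with 0 without MO5, MO8, MO15, MO16 or MO18. The 38 genes of NGy against CGy became 17 (without MO15) to 53 (without MO14B). The separation of samples was 0.0523 to 0.0694 under the alternatives, each with an exact permutation p of 0.0571. None of the 4 named genes changed direction. The alternatives for NGy against CGy, the single-gene fits with array weights or all groups, and the counts of non-overlapping and 1.5-fold different genes without MO4 were chosen after seeing the data. Causes of these shifts were not tested. No paired analysis was possible because the columns carry no replicate number and could not be tied to the serials in the sample titles.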
